A study of Mus musculus with 21 samples.

Results

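Messenger RNA of 10 genes of bone morphogenetic protein (BMP) signalling was followed across 21 RNA sequencing libraries of mouse pancreatic tumour cells. The genes were the secreted antagonist Grem1, the ligands Bmp2, Bmp4 and Bmp7, the decoy receptor Bambi, the inhibitory SMAD Smad6 and the ID genes Id1, Id2, Id3 and Id4. They were taken by symbol from a table of 24623 genes, which listed all 10. The symbols had been selected on earlier measured values from these same libraries, their differences between KO and WT lines included, so what follows on those differences is description. Levels are in TPM, a relative transcript abundance corrected for transcript length that adds up to the same total in each library. A gene was tested where it reached at least 1 TPM in at least 3 libraries, which 14337 genes did and 9 of the 10 did. Bambi stayed below 1 TPM in every library and was tested just in a fit with no filter on low values.

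BMPs are secreted ligands of the transforming growth factor beta superfamily that signal through paired type I and type II serine/threonine kinase receptors. The receptors phosphorylate SMAD1, SMAD5 and SMAD9, which enter the nucleus with SMAD4 and switch on target genes, among them the ID genes and Smad6. ID proteins are helix-loop-helix proteins without a DNA-binding region, and they hold E proteins such as those encoded by Tcf3, Tcf4 and Tcf12 away from DNA. Gremlin 1, encoded by Grem1, binds BMP2, BMP4 and BMP7 outside the cell and keeps them from their receptors. In pancreatic tumours Grem1 is known as a product of stromal fibroblasts and of tumour cells with mesenchymal features.

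The libraries came from 2 clones of pancreatic tumour cells, 6694c2 and 6419c5. The cells had been implanted under the skin of C57BL/6 mice, given no treatment, and sorted from the tumours 3 weeks later. Each clone had a parental line (titled with just the clone's name and called WT) and a pair of lines labelled EPHA2-KO, with 4 libraries of each line in 6694c2 and 3 of each in 6419c5. EPHA2 is a receptor tyrosine kinase for ephrins. The lines are called KOA and KOB after the letters in the table, since nothing tied those letters to the numbers in the labels, and libraries are numbered as in the table. How EPHA2 was edited was not given in the sources used here. With 1 WT line and 2 KO lines in a clone, the knockout and other differences between lines cannot be told apart. Whether a line's libraries come from different animals is not stated, so p-values measure the spread between libraries, which may be technical.

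Epha2 itself was lower in both KO lines of 6694c2, where WT averaged 245 ± 5.11 TPM, KOA 115 ± 18.3 and KOB 97.8 ± 11.4 (SD, n = 4 each). The WT, KOA and KOB averages in 6419c5 were 176 ± 13.5, 150.5 ± 6.05 and 197 ± 25.7 TPM (SD, n = 3 each), with a KO effect of −0.03 (log2) that did not pass the test, so directions in this clone refer to the libraries labelled EPHA2-KO. TPM carries no record of read number and the depth is unknown. Mir6236 took 22665 to 54492 TPM in 19 libraries, 145023 in library 4 of 6694c2 KOB and 91142 in library 3 of 6419c5 WT. Markers of tumour epithelium (Epcam, Cdh1, Krt7, Krt8, Krt18, Krt19) summed to 6185 to 8754 TPM in 6694c2. In 6419c5 they summed to 5647 to 7562 TPM in WT and 12258 to 16318 in the KO lines, and their part in the results below was not tested.

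The first question was how the antagonist, the ligands and the targets differed between each parental line and its KO lines. For each clone the KO effect is the average of its KO lines minus WT on the log2(TPM + 1) scale, which understates the change of genes with low levels. Calls are at an adjusted p under 0.05 in limma. In 6694c2, 2 of the 9 tested members were called higher (Bmp7, Smad6) beside 23.9% of all genes tested, and 4 lower (Grem1, Bmp2, Id2, Id4) beside 13.5%. In 6419c5, 2 were called higher (Bmp4, Smad6) beside 26.5% of all genes, and 4 lower (Grem1, Bmp2, Bmp7, Id3) beside 15%. Bmp7 and Id4 were tested only through libraries where they are high, a limit of every count of members given here. Over all genes, 3429 were called higher against 1932 lower in 6694c2, which became 2716 against 3021 after scaling by median-of-ratios size factors. The same split in 6419c5 was 3796 against 2146, and 3175 against 3120 after that scaling. When the line was fitted as a random effect, 0 of the 9 members were called in 6694c2 and 1, Bmp4, in 6419c5 (adjusted p = 0.0482).

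Grem1 had the largest KO effect in size of the 9 tested members in both clones. In 6694c2 KOA taken alone, Bmp2 was further below WT (−2.15, log2) than Grem1 (−1.10). The Grem1 gene lies at chr2:113748675-113758648 on the minus strand (GRCm38.p6, the patch release of mm10). In 6694c2 the WT libraries held 78.5, 73.1, 69.3 and 68.4 TPM, the KOA libraries 25.1, 19.95, 47.5 and 50.6, and the KOB libraries 0.727, 0.498, 0.803 and 0.867. All 8 KO libraries were below the lowest WT library, and KOB was below 1 TPM throughout, with a mean 99.97 times under that of WT. The WT libraries of 6419c5 held 92.0, 179.7 and 448 TPM, the KOA libraries 53.6, 33.2 and 33.7, and the KOB libraries 38.4, 54.7 and 61.9. Again every KO library was below every WT library, and the WT libraries themselves covered a wide range. Over all genes tested, every KO library lay below every WT library for 4.85% of genes in 6694c2 and 9.99% in 6419c5.

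The KO effect of Grem1 was −3.26 ± 0.31 in 6694c2 (log2, SE; adjusted p = 2.38e-07) and −2.11 ± 0.35 in 6419c5 (adjusted p = 1.15e-04). Without library 3 of 6419c5 WT, the library of high Mir6236 and of the highest Grem1, the effect in 6419c5 was −1.51 and remained called. The KO lines of 6694c2 differed from each other, with KOB less KOA at −4.32 ± 0.35 (adjusted p = 2.67e-08). KOB less KOA in 6419c5 was 0.36 ± 0.41 (adjusted p = 0.585), and the libraries of those lines overlapped. The difference of the KO effect between clones, −1.15, had an adjusted p of 0.0737. It passed the threshold without library 3 of 6419c5 WT (−1.75, adjusted p = 0.00286) and with a pseudocount of 0.1 (−1.67, adjusted p = 0.0155). Leaving out 1 library at a time, it ranged from −1.75 to −0.61, with limma's adjusted p up to 0.292. The adjusted p was 0.988 with the line as a random effect.

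**Figure D1:**
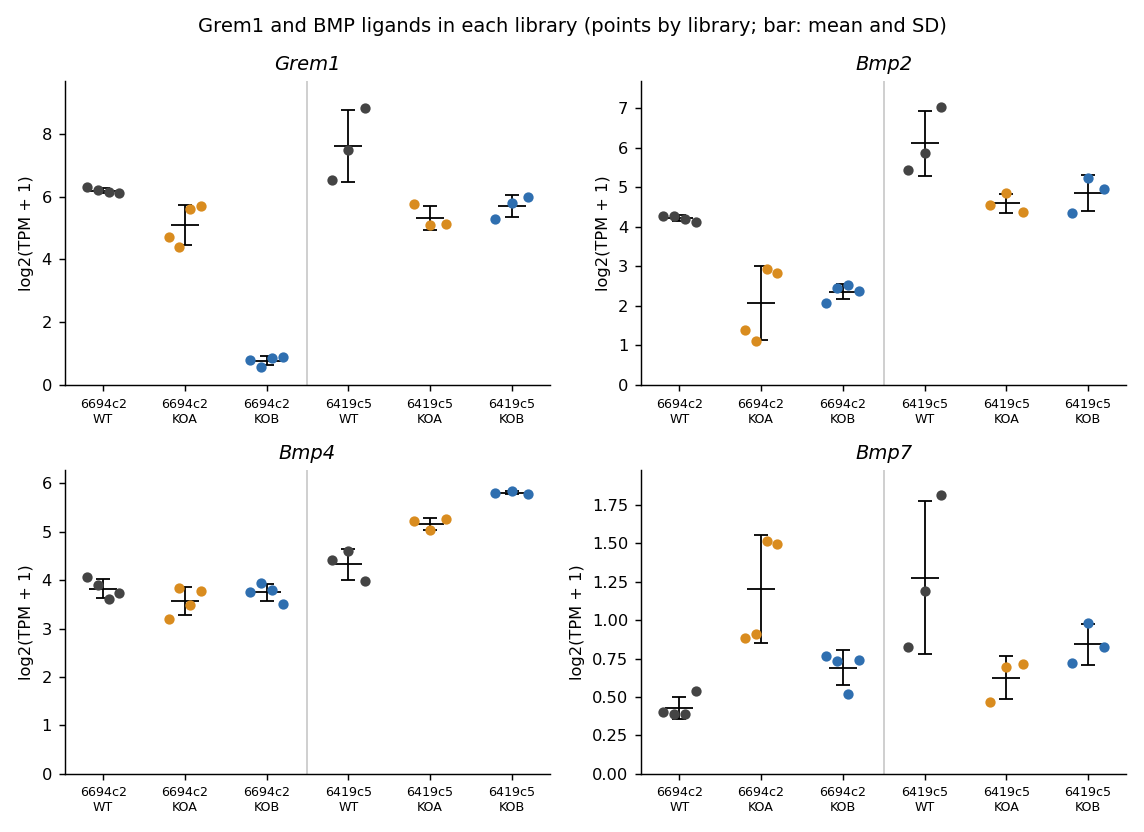
Levels of Grem1, Bmp2, Bmp4 and Bmp7 as log2(TPM + 1) in each library of the 6 lines, with the mean and SD of each line as a bar. Grem1 and Bmp2 sit below WT in all KO libraries of both clones, Grem1 is below 1 on this scale in 6694c2 KOB, and Bmp4 is above WT in all KO libraries of 6419c5 and in none of 6694c2.

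The promoter windows of Grem1 and Bmp4 are shown because Grem1 had the most negative KO effect of the tested members in both clones while Bmp4 was called higher in 6419c5. Each is the 250 bases before the RefSeq start of the gene, 5′ to 3′ on the gene's strand, on GRCm38.p6, at chr2:113758649-113758898 for Grem1 and chr14:46390670-46390919 for Bmp4, both on the minus strand. No exon of the GENCODE annotation overlapped either window. Capitals mark GGCGCC, a GC-rich element bound by BMP-activated SMADs, and CAGAC, the SMAD binding element, searched on both strands.
Grem1: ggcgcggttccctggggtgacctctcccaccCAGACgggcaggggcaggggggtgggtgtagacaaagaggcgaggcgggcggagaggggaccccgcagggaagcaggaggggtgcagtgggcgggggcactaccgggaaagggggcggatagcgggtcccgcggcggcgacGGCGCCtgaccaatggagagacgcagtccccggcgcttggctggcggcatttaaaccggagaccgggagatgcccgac
Bmp4: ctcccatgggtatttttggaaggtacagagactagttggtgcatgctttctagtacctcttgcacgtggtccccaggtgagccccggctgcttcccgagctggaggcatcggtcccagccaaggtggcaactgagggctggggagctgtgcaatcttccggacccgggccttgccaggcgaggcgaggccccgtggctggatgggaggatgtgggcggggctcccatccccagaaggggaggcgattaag
Grem1 held 1 GGCGCC and 1 CAGAC, which did not overlap, and Bmp4 held neither. Over 32851 promoter windows of the same length, 9.59% held GGCGCC and 42.2% held CAGAC. The E-box motif bound by E proteins, CANNTG, is not capitalised and occurred 3 times in the Bmp4 window, 0 times in the Grem1 window and in 66.2% of all windows. These are matches of letters and no measure of binding.

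Grem1 is made by fibroblasts as well as by some tumour cells, so 10 fibroblast markers (Col1a1, Col1a2, Col3a1, Pdgfra, Pdgfrb, Dcn, Lum, Fap, Thy1, Acta2) were summed in each library. None of the 10 was at 0 in any library. In 6694c2 the sum was 241 to 369 TPM for WT, 212 to 849 for KOA and 72.7 to 126 for KOB, so the sum was highest in KOA where Grem1 was highest in WT, and both were lowest in KOB. For 6419c5 it was 1234 to 2085 TPM (WT), 694 to 872 (KOA) and 1718 to 2520 (KOB). Grem1 was lower than WT in 6419c5 KOB, where the fibroblast sum overlapped that of WT, and in 6694c2 KOA, where the sum exceeded that of WT in 3 of 4 libraries. It was lowest in 6694c2 KOB, where the sum was also lowest. The sum was made up mostly of the collagens Col1a1, Col1a2 and Col3a1, with medians of 324, 144 and 142 TPM over all libraries against 14.5 or less for each of the other markers. Single markers in 6419c5 KOB did not all move the same way: Dcn (−3.36), Pdgfra (−1.37) and Acta2 (−0.60) were called lower than WT, and Col1a1 (0.99), Col1a2 (1.44) and Thy1 (0.75) higher (log2). For the KO effect, 0 of the 10 markers were called higher in either clone, beside 23.9% of all genes in 6694c2 and 26.5% in 6419c5, and 2 were called lower in 6694c2 (beside 13.5%) and 5 in 6419c5 (beside 15%). Line by line, KOA of 6694c2 had 2 markers called higher (beside 15.2%) and 0 lower (beside 7.56%). KOB of 6694c2 had 0 higher (beside 29.2%) and 7 lower (beside 19.4%). KOA of 6419c5 had 0 higher (beside 19.1%) and 7 lower (beside 12.7%). KOB of 6419c5 had 3 higher (beside 28.5%) and 3 lower (beside 14.7%). The part of fibroblast RNA in the Grem1 values was not tested. In these bulk samples, fewer cells of a type and less RNA per cell cannot be told apart.

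**Figure D2:**
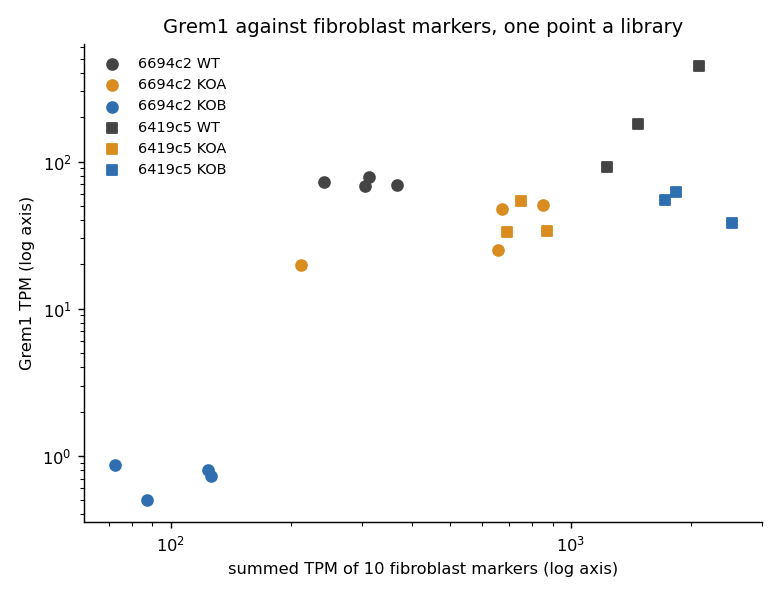
Grem1 TPM against the summed TPM of 10 fibroblast markers, both on log axes, with 1 point for each of the 21 libraries. The 4 libraries of 6694c2 KOB lie apart at the lower left, below 1 TPM of Grem1, and the libraries of 6419c5 KOB lie under those of 6419c5 WT at fibroblast sums of 1718 to 2520.

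Bmp2 encodes a ligand that binds the BMP type I receptors and is itself bound by gremlin 1 (chr2:133552159-133562896). Bmp2 in 6694c2 was at 18.2, 18.5, 17.4 and 16.4 TPM (WT), 1.64, 1.18, 6.61 and 6.14 (KOA) and 3.23, 4.48, 4.78 and 4.22 (KOB). Values of 6419c5 were 42.4, 57.1 and 129 TPM (WT), 22.5, 28.0 and 19.7 (KOA) and 19.4, 36.6 and 30.3 (KOB). In both clones all KO libraries were below all WT libraries, as for 4.85% of all genes tested in 6694c2 and 9.99% in 6419c5. The KO effect was −2.001 ± 0.31 in 6694c2 (log2, SE; adjusted p = 6.88e-05) and −1.39 ± 0.36 in 6419c5 (adjusted p = 0.00490). Leaving out library 3 of WT ended the call in 6419c5 (−0.93, adjusted p = 0.0605). The KO effects did not differ between clones at the threshold (−0.62, adjusted p = 0.363).

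Bmp4 encodes a ligand closely related to BMP2 (chr14:46383525-46390669), and its KO effect differed between the clones. In 6694c2 the WT libraries held 15.7, 13.8, 11.2 and 12.3 TPM, its KOA libraries 8.23, 13.3, 10.2 and 12.6, and its KOB libraries 12.4, 14.3, 12.8 and 10.4, and the 3 lines overlapped. For 6419c5 the values were 20.3, 23.2 and 14.7 TPM (WT), 36.2, 31.6 and 37.2 (KOA) and 54.8, 56.6 and 53.7 (KOB). All 6 KO libraries of 6419c5 were above all WT libraries, which was so for 17.8% of all genes tested. The KO effect was 1.16 ± 0.15 in 6419c5 (log2, SE; adjusted p = 5.48e-06) and −0.17 ± 0.13 in 6694c2 (adjusted p = 0.328). The difference between the clones, −1.32, passed the test (adjusted p = 6.17e-05) and kept its call without any 1 of the libraries, but lost it with the line as a random effect (adjusted p = 0.314). KOB was 0.64 ± 0.17 above KOA in 6419c5 (adjusted p = 0.0132), a call lost without library 2 of KOA (0.57, adjusted p = 0.0532).

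Bmp7, a ligand of another branch of the family (chr2:172868012-172940321), was near the lower limit of the levels tested. In 6694c2 the WT libraries held 0.322, 0.310, 0.312 and 0.452 TPM, its KOA libraries 0.848, 0.877, 1.86 and 1.82, and its KOB libraries 0.702, 0.662, 0.436 and 0.667. Values of 6419c5 were 0.773, 1.29 and 2.51 TPM (WT), 0.381, 0.619 and 0.644 (KOA) and 0.646, 0.978 and 0.775 (KOB). It reached 1 TPM in 2 KOA libraries of 6694c2 and 2 WT libraries of 6419c5 and in no other, so it was tested through the lines where it is high. The clones went opposite ways, with KO effects of 0.52 ± 0.16 in 6694c2 (log2, SE; adjusted p = 0.0156) and −0.54 ± 0.18 in 6419c5 (adjusted p = 0.0237). The difference of 1.06 passed the test (adjusted p = 0.00318). Leaving out library 3 of WT ended the call in 6419c5 (−0.27, adjusted p = 0.239), as did a fit of that clone alone (adjusted p = 0.0705). Line by line, Bmp7 in KOA was called against WT in 6694c2 (0.77) and in 6419c5 (−0.65). KOB was called in neither clone, at 0.26 in 6694c2 (adjusted p = 0.259) and −0.43 in 6419c5 (adjusted p = 0.106).

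Bmp2 was the largest part of the summed ligands in both WT lines and Bmp4 in all 4 KO lines. Bmp2, Bmp4 and Bmp7 together averaged 31.2 ± 2.61, 16.3 ± 4.33 and 17.3 ± 1.83 TPM for 6694c2 WT, KOA and KOB (SD, n = 4 each), and 97.1 ± 43.5, 58.9 ± 1.34 and 84.6 ± 9.69 TPM for 6419c5 WT, KOA and KOB (SD, n = 3 each). Bmp2 made up 56.6% of the sum in 6694c2 WT and 75.0% in 6419c5 WT. Bmp4 made up 69.8% and 72.1% in 6694c2 KOA and KOB and 59.5% and 65.6% in 6419c5 KOA and KOB. Grem1 per summed ligand, a ratio chosen after the values were seen and not tested, was 2.24 to 2.39 in 6694c2 WT, with 1.30 to 2.55 for KOA and 0.0257 to 0.0569 for KOB. The ratio was 1.45 to 3.06 for 6419c5 WT, 0.552 to 0.907 for KOA and 0.513 to 0.730 for KOB. KOA of 6694c2 was therefore the KO line whose ratio overlapped that of its WT line.

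Bambi encodes a membrane protein that resembles a type I receptor without the kinase and dampens BMP signals. It lay between 0.159 and 0.789 TPM in all 21 libraries, with averages of 0.579 ± 0.117, 0.655 ± 0.152 and 0.291 ± 0.156 for 6694c2 WT, KOA and KOB (SD, n = 4 each). In 6419c5 the means were 0.429 ± 0.0931, 0.325 ± 0.121 and 0.512 ± 0.167 TPM for its WT, KOA and KOB lines (SD, n = 3 each). The libraries of each KO line of 6419c5 overlapped those of WT, and in 6694c2 KOB 3 of 4 were below every WT library. With no filter on low values, the Bambi KO effect was −0.11 ± 0.08 in 6694c2 (log2, SE; adjusted p = 0.351) and −0.02 ± 0.09 in 6419c5 (adjusted p = 0.948). In that fit, KOB less WT of 6694c2 was −0.30 ± 0.09 (adjusted p = 0.0193) and KOB less KOA −0.36 ± 0.09 (adjusted p = 0.00571), both called lower.

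Smad6, an inhibitory SMAD that is itself switched on by BMP signals (chr9:63953076-64022085), was higher in the KO lines. Smad6 in 6694c2 was at 8.53, 8.82, 7.32 and 6.86 TPM (WT), 10.7, 14.4, 10.1 and 10.8 (KOA) and 17.3, 18.8, 18.3 and 14.5 (KOB). All 8 KO libraries were above all WT libraries, as for 9.4% of all genes tested, and the lines were ordered WT, KOA and KOB without overlap between KOA and KOB. For 6419c5 the values were 5.57, 6.39 and 5.13 TPM (WT), 5.40, 6.02 and 6.87 (KOA) and 9.75, 13.2 and 7.81 (KOB), so KOA overlapped WT and KOB did not. The KO effect was 0.76 ± 0.12 in 6694c2 (log2, SE; adjusted p = 7.47e-05) and 0.40 ± 0.14 in 6419c5 (adjusted p = 0.0260). In 6419c5 this call went with size factors (0.32, adjusted p = 0.0723), in a fit of that clone alone (adjusted p = 0.0789), and without library 1 or 3 of WT, library 3 of KOA or library 2 of KOB (0.31 to 0.39, adjusted p = 0.0549 to 0.110).

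The ID genes are the best known targets of BMP-activated SMADs, and Id2 was the most abundant of them. Id1 to Id4 together averaged 265 ± 5.92, 247 ± 19.96 and 209.6 ± 7.35 TPM for 6694c2 WT, KOA and KOB (SD, n = 4 each). The sums for the same lines of 6419c5 averaged 164 ± 27.2, 134 ± 8.29 and 189 ± 20.8 TPM (SD, n = 3 each). Id2 made up between 49.4% of the sum in 6419c5 WT and 76.1% in 6694c2 KOA. Id3 made up 17.8% of the sum in 6419c5 WT and 1.82% in 6694c2 WT.

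Id1 (chr2:152736251-152737410) covered 37.6 to 82.9 TPM over all 21 libraries. The WT libraries of 6694c2 held 65.9, 62.5, 58.6 and 56.9 TPM, its KOA libraries 53.6, 59.5, 44.4 and 43.4, and its KOB libraries 76.4, 78.2, 62.7 and 58.8. Values of 6419c5 were 63.1, 62.1 and 37.6 TPM (WT), 53.4, 38.2 and 43.7 (KOA) and 51.0, 82.9 and 69.6 (KOB). In the order of mean levels each line overlapped the next. The KO effect was −0.06 ± 0.15 in 6694c2 (log2, SE; adjusted p = 0.790) and 0.04 ± 0.17 in 6419c5 (adjusted p = 0.859), and the latter took the opposite sign with size factors (−0.044). KOB was above KOA by 0.45 ± 0.17 in 6694c2 (adjusted p = 0.0352), a call lost without library 3 or 4 of KOA or library 1 or 2 of KOB (0.39 to 0.40) or with no filter on low values (adjusted p = 0.0529). In 6419c5 KOB less KOA was 0.56 ± 0.20 (adjusted p = 0.0539, not called). It passed after rescaling without Mir6236 (adjusted p = 0.0431), without both libraries of high Mir6236 (0.0209), and without library 2 of 6694c2 KOA or library 1 or 3 of WT, 1 of KOA or 1 of KOB of 6419c5 (0.56 to 0.75, adjusted p = 0.0179 to 0.0493).

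Id2 (chr12:25093799-25096092) was called lower in KOB of 6694c2, while KOA differed from WT by −0.07 ± 0.09 (log2, SE; not called). Its WT libraries held 194, 201, 196 and 196 TPM, its KOA libraries 195, 205, 191 and 162, and its KOB libraries 136, 134, 143 and 137. For 6419c5 the values were 73.3, 95.0 and 72.0 TPM (WT), 74.9, 76.8 and 77.4 (KOA) and 119, 113 and 87.2 (KOB). All KOB libraries of 6694c2 were under all WT and KOA libraries, and those of 6419c5 were above all KOA libraries, with 2 of 3 above all WT libraries. The shares of all genes separated in these ways were not counted. KOB less WT was −0.51 ± 0.09 in 6694c2 (log2, SE; adjusted p = 1.86e-04) and 0.41 ± 0.11 in 6419c5 (adjusted p = 0.00597), the latter lost with size factors (0.28, adjusted p = 0.0650) and in a fit of that clone alone (adjusted p = 0.0501). The KO effect was −0.29 ± 0.08 in 6694c2 (adjusted p = 0.00906) and 0.17 ± 0.09 in 6419c5 (adjusted p = 0.148), and the difference of −0.47 passed the test (adjusted p = 0.00949). In 6419c5 the effect passed the threshold without library 2 of WT (0.30, adjusted p = 0.0173) or library 3 of KOB (0.24, adjusted p = 0.0258).

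Id3 (chr4:136143822-136145392) differed most between the clones themselves. The WT libraries of 6694c2 held 5.40, 5.93, 3.995 and 4.01 TPM, its KOA libraries 2.81, 2.47, 11.5 and 11.3, and its KOB libraries 2.38, 3.00, 2.89 and 3.06. Values of 6419c5 were 40.5, 24.2 and 22.6 TPM (WT), 11.2, 9.78 and 17.6 (KOA) and 15.5, 15.4 and 13.4 (KOB). All KO libraries of 6419c5 and all KOB libraries of 6694c2 were under all WT libraries of their clone, while KOA of 6694c2 had 2 libraries below and 2 above its WT. For the KO libraries of 6419c5 this was so for 9.99% of all genes tested. For KOB of 6694c2 alone the share was not counted. The KO effect was −0.999 ± 0.34 in 6419c5 (log2, SE; adjusted p = 0.0254), lost without library 1 of WT (−0.74, adjusted p = 0.143), and −0.19 ± 0.30 in 6694c2 (adjusted p = 0.659).

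Id4 (chr13:48261116-48266028) was above 1 TPM in 6694c2 WT and 2 KOA libraries, and below it in all of 6419c5, so it was tested through libraries where it is high. The WT libraries of 6694c2 held 2.41, 1.69, 2.11 and 1.95 TPM, its KOA libraries 0.933, 0.232, 2.13 and 2.68, and its KOB libraries 0.330, 0.109, 0.0423 and 0.151. In 6419c5 no library was above 0.517 TPM and library 3 of WT was listed at 0. The KO effect in 6694c2 was −0.90 ± 0.21 (log2, SE; adjusted p = 0.00208), with all KOB libraries below all WT libraries and KOA split. The share of all genes with KOB below WT in this way was not counted. In 6419c5 the effect was 0.10 (adjusted p = 0.775). The difference between clones, −0.995 (adjusted p = 0.0239), was lost without library 1 of 6694c2 WT or library 1 or 3 of 6419c5 WT (adjusted p = 0.0509 to 0.0604).

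**Figure D3:**
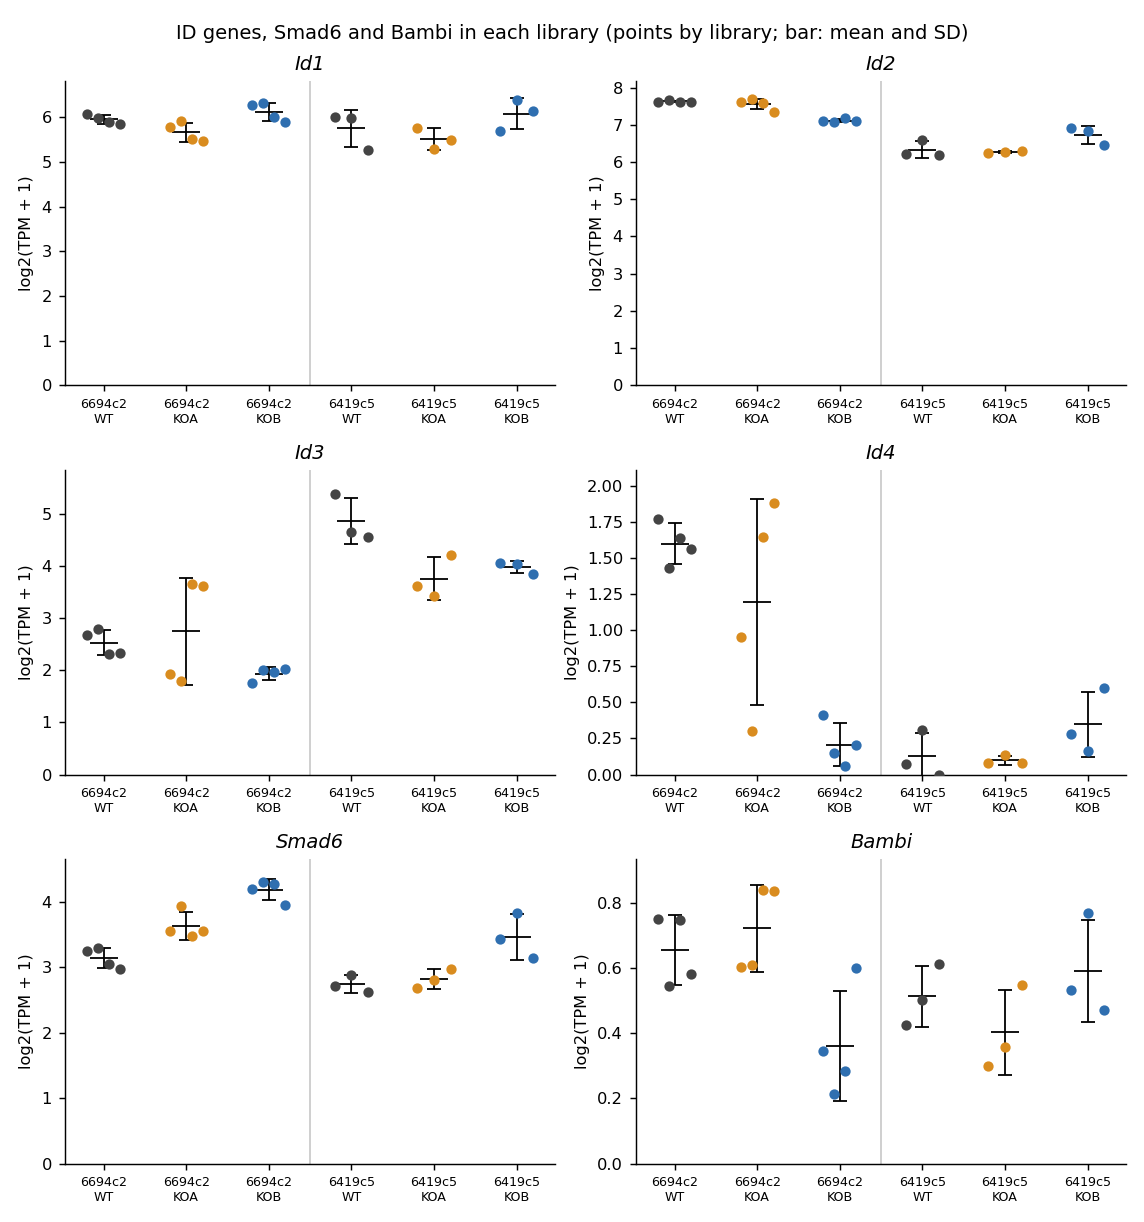
Levels of Id1, Id2, Id3, Id4, Smad6 and Bambi as log2(TPM + 1) in each library of the 6 lines, with the mean and SD of each line as a bar and a scale of its own in each panel. Smad6 is above WT in all KO libraries of 6694c2, Id3 is below WT in all KO libraries of 6419c5, and the KOA libraries of 6694c2 fall into 2 pairs for Id3 and Id4.

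Library pairs within 6694c2 KOA stood apart in several members. Libraries 3 and 4 were above libraries 1 and 2 in Grem1, Bmp2, Bmp7, Bambi, Id3 and Id4. They were below libraries 1 and 2 in Id1 (44.4 and 43.4 against 53.6 and 59.5 TPM) and Id2 (191 and 162 against 195 and 205 TPM). Bmp4 and Smad6 overlapped between the pairs. The share of all genes that split between these pairs was not counted, so the split is not shown to be particular to the members. The tumour epithelium sum was lower in libraries 3 and 4, at 6185 and 6401 TPM against 8576 and 8369 in libraries 1 and 2. In the same libraries the sum of 8 endothelial markers (Pecam1, Cdh5, Kdr, Tek, Emcn, Vwf, Tie1, Cldn5) was 22.3 and 23.96 TPM against 9.90 and 9.27, and the sum of 9 macrophage markers (Ptprc, Adgre1, Csf1r, Cd68, C1qa, C1qb, C1qc, Lyz2, Mrc1) was 784 and 914 TPM against 161 and 341. The fibroblast sum was 674 and 849 TPM against 656 and 212. Each of the endothelial, macrophage and fibroblast markers was above 0 in every library, and the part of all 4 sums in the split was not tested. In the other lines of 6694c2 the macrophage sum was 171 to 1294 TPM in WT and 57.1 to 331 in KOB, and the endothelial sum 2.95 to 9.38 and 2.59 to 3.47. In 6419c5 the macrophage sum was 883 to 2383 TPM (WT), 189 to 4105 (KOA) and 214 to 337 (KOB), and the endothelial sum was 8.57 to 27.2 TPM over all its lines.

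Each KO line was also set against its WT line on its own, with WT libraries that both KO lines of a clone share. In 6694c2, KOA had 2 of 9 members called higher beside 15.2% of all genes and 2 lower beside 7.56%, and KOB had 1 higher beside 29.2% and 4 lower beside 19.4%. In 6419c5, KOA had 1 higher beside 19.1% and 4 lower beside 12.7%, and KOB had 3 higher beside 28.5% and 2 lower beside 14.7%. The Grem1 differences were −1.10 ± 0.35 and −5.41 ± 0.35 in KOA and KOB of 6694c2 and −2.29 ± 0.41 and −1.92 ± 0.41 in KOA and KOB of 6419c5 (log2, SE). The first of them lost its call without any 1 of the 4 WT libraries or of KOA libraries 1 and 2 (−0.86 to −1.12, adjusted p = 0.0581 to 0.0867). For Bmp2 the differences were −2.15 ± 0.36, −1.86 ± 0.36, −1.51 ± 0.42 and −1.26 ± 0.42 in the same order, and both of 6419c5 lost their call without library 3 of WT (−1.06 and −0.80), the latter also without library 1 of KOB (−1.01). In KOA of 6419c5 the Bmp7 call (−0.65) was lost without library 3 of WT or 1 of KOA (−0.38 and −0.57) and the Id3 call (−1.11) without library 1 or 2 of WT or of KOA (−1.22 to −0.85). For Smad6 they were 0.49 ± 0.14, 1.04 ± 0.14, 0.08 ± 0.16 and 0.73 ± 0.16, and the first lost its call without library 4 of WT (0.43, adjusted p = 0.0587). KOB less KOA had 2 members called higher (Id1, Smad6) in 6694c2 beside 23.6% of all genes and 4 lower (Grem1, Bmp7, Id2, Id4) beside 22.9%. In 6419c5 it had 3 higher (Bmp4, Id2, Smad6) beside 12.7% and 0 lower beside 4.76%. The Bmp7 call (−0.51) was lost without library 3 or 4 of 6694c2 KOA or library 3 of 6694c2 KOB (−0.46 to −0.41), and the Smad6 call in 6419c5 (0.64) without library 2 of KOB (0.46, adjusted p = 0.0687).

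**Figure D4:**
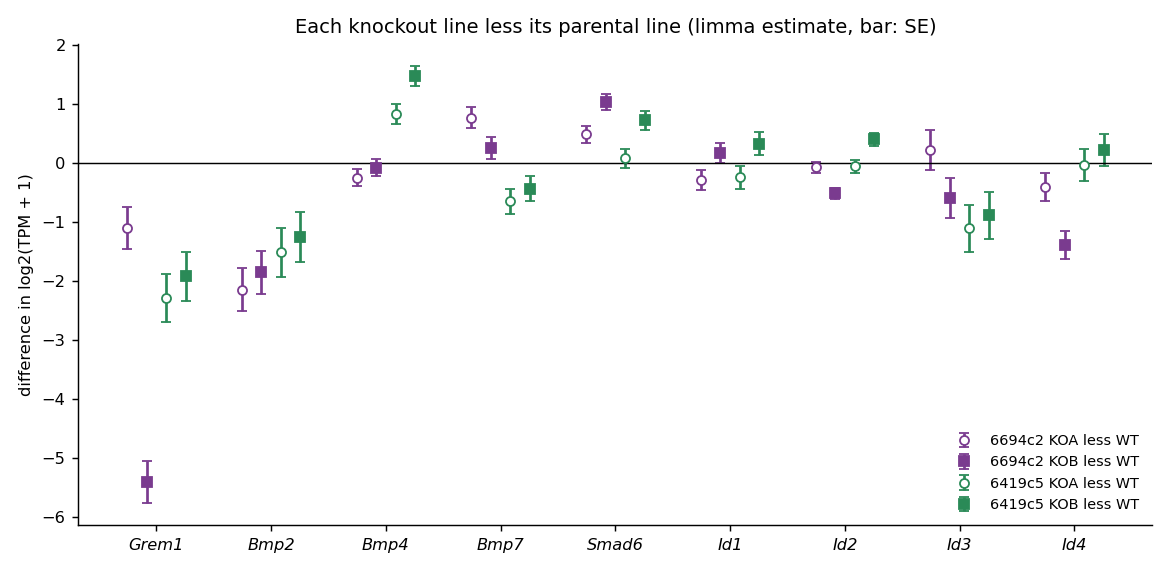
Difference of each KO line from its WT line in log2(TPM + 1) for the 9 tested members, as limma estimates with SE bars, open symbols for KOA and filled for KOB. Grem1 and Bmp2 are below 0 in all 4 KO lines and Smad6 is above 0 in all 4, while Bmp4 and Bmp7 differ in sign between the clones.

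Between the clones the KO effect differed at the threshold for 4 of 9 members (Bmp4, Bmp7, Id2, Id4), beside 28.6% of all genes tested. Of these members, Bmp7 and Id4 were tested only through libraries where they are high. With the line as a random effect all 4 of these calls were lost, at an adjusted p of 0.314 for Bmp4, 0.7005 for Bmp7, 0.875 for Id2 and 0.888 for Id4. For Grem1, Bmp2, Smad6, Id1 and Id3 a difference was not shown, which does not mean that the effects were alike. For Id3 it was 0.81 ± 0.45 (log2, SE; adjusted p = 0.195) and for Smad6 0.36 ± 0.18 (adjusted p = 0.160).

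The WT lines of the clones differed in most members before any knockout. In 6694c2 WT less 6419c5 WT, 3 of 9 members were called higher (Id2, Id4, Smad6) beside 21.5% of all genes and 5 lower (Grem1, Bmp2, Bmp4, Bmp7, Id3) beside 32%. The differences were −2.33 ± 0.37 for Id3 (log2, SE; adjusted p = 3.78e-05), −1.89 ± 0.39 for Bmp2 (adjusted p = 5.33e-04) and −1.42 ± 0.38 for Grem1 (adjusted p = 0.00434). The Grem1 call did not hold once both libraries of high Mir6236 were left out (−0.82, adjusted p = 0.0505). Id2 was higher by 1.30 ± 0.10 (adjusted p = 1.11e-08), with every WT library of 6694c2 above every WT library of 6419c5. The share of all genes separated in this way was not counted. The call for Smad6 (0.41) was lost without library 1 or 2 of 6694c2 WT or library 1 or 3 of 6419c5 WT (0.34 to 0.39), and that for Bmp4 (−0.50) without library 2 of 6419c5 WT (−0.37, adjusted p = 0.0833). Between these WT lines 8 of 10 fibroblast markers were called lower and 0 higher, beside the same shares of all genes. Of 6 tested endothelial markers 4 were lower and 0 higher, of 9 macrophage markers 2 and 0, and of 6 epithelial markers 1 and 2. Median fibroblast sums were 310 TPM in 6694c2 WT and 1473 in 6419c5 WT, and median macrophage sums 309 and 2127. The part of these cell types in the members' differences was not tested.

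The rest of the pathway was read from 6 lists of 67 gene symbols, of which 66 were in the table and 41 were tested. Hfe2 and Hjv, both listed, are symbols of the same gene, and the table held it as Hfe2. In 6694c2, 3 of the 41 were called higher beside 23.9% of all genes and 9 lower beside 13.5%, with a median KO effect of −0.11 (log2) against 0.07 over all genes tested. In 6419c5, 8 were called higher beside 26.5% and 10 lower beside 15%, with a median of −0.11 against 0.08. With the line as a random effect 0 and 1 of them were called. Some of the 41, among them Bmp8a, Chrdl2, Gata2 and Tbx3, were tested only through libraries where they are high. This limits the counts and medians given here and those of the single lists below.

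Of 10 tested receptors and co-receptors, 0 were called higher (23.9% of all genes) and 2 lower (13.5%) in 6694c2, and 0 higher (26.5%) and 4 lower (15%) in 6419c5. Acvr1, a type I BMP receptor, averaged 55.7 ± 2.51, 45.9 ± 4.64 and 26.0 ± 1.23 TPM for 6694c2 WT, KOA and KOB (SD, n = 4 each) and 50.5 ± 6.55, 32.4 ± 2.82 and 29.5 ± 1.89 TPM for 6419c5 WT, KOA and KOB (SD, n = 3 each). Every KO library was below every WT library of its clone, with KO effects of −0.67 ± 0.07 and −0.68 ± 0.08 (log2, SE; adjusted p = 1.05e-06 and 3.76e-06). Such a separation held for 4.85% of all genes tested in 6694c2 and 9.99% in 6419c5. Neo1, which encodes the receptor neogenin that binds RGM co-receptors, had KO effects of −0.45 ± 0.11 and −0.86 ± 0.13. Rgma, a BMP co-receptor, was called lower in 6419c5 (−1.21 ± 0.13), with averages of 3.01 ± 0.477 TPM (WT), 0.487 ± 0.175 (KOA) and 1.01 ± 0.167 (KOB; SD, n = 3 each). It was the pathway gene still called there with the line as a random effect (adjusted p = 0.0263). In 6694c2 Rgma was at or below 1.10 TPM in all libraries.

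Of 10 tested SMADs and SMAD regulators, 0 were called higher (23.9% of all genes) and 4 lower (13.5%) in 6694c2, and 1 higher (26.5%) and 3 lower (15%) in 6419c5. Smad1, a receptor-activated SMAD of the BMP branch, had KO effects of −0.37 ± 0.08 and −0.42 ± 0.09 (log2, SE), at 44.1 ± 1.59 TPM in 6694c2 WT and 49.6 ± 3.61 in 6419c5 WT. Smad5, its close relative, had −0.11 ± 0.11 and −0.57 ± 0.13, the second called. Skil, which encodes a repressor of SMAD complexes, had −0.35 ± 0.10, called, and −0.11 ± 0.11, not called, though the latter passed without library 1 of 6419c5 WT (−0.29, adjusted p = 0.0249).

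Among 10 other secreted antagonists tested, 2 were called higher (23.9% of all genes) and 1 lower (13.5%) in 6694c2, and 3 higher (26.5%) and 1 lower (15%) in 6419c5, shares near those of all genes. Chrd, which encodes the antagonist chordin, had KO effects of 0.45 ± 0.13 and 0.96 ± 0.15 (log2, SE), both called. It measured 3.01 ± 0.267 TPM in 6694c2 WT and 6.06 ± 0.390 in KOB (SD, n = 4 each), while KOA overlapped WT. Chrd averages for 6419c5 were 3.27 ± 0.327 (WT), 5.12 ± 0.866 (KOA) and 10.4 ± 2.36 TPM (KOB; SD, n = 3 each). Bmper, a chordin-like modulator of BMPs, had −0.72 ± 0.14, called, and −0.36 ± 0.17, not called, the latter passing without library 1 of 6419c5 WT (−0.54, adjusted p = 0.0253) or library 2 of 6694c2 KOA and with size factors. Chrdl2 was called higher in 6694c2 (0.80 ± 0.17) through KOB, at 1.87 ± 0.830 TPM there against 0.0325 ± 0.0376 in WT (SD, n = 4 each). It reached 1 TPM in 3 libraries of KOB and in no other. It was therefore tested only through the line where it is high, and the call is description.

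Of 12 other ligands 2 were tested, and both were called higher in 6419c5 (26.5% of all genes) and neither in 6694c2 (23.9%). Bmp8a had KO effects of 0.22 ± 0.11 and 0.87 ± 0.13 (log2, SE), from 0.511 ± 0.211 TPM in 6419c5 WT to 2.11 ± 0.437 in KOB (SD, n = 3 each), and the difference between clones passed the test (adjusted p = 0.00822). The libraries in which Bmp8a reached 1 TPM were the 6 of the KO lines of 6419c5, so it too was tested only through the lines where it is high. Gdf7 had 0.07 ± 0.13 and 0.56 ± 0.15, the second lost without library 1 of 6419c5 WT (0.35, adjusted p = 0.0631).

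Among 6 other target genes tested, 0 were called higher (23.9% of all genes) and 2 lower (13.5%) in 6694c2, and 1 higher (26.5%) and 1 lower (15%) in 6419c5. Dlx3, a homeobox gene, was called higher in 6419c5 (1.05 ± 0.23, log2, SE) and Gata2, a zinc finger factor gene, lower (−1.02 ± 0.13). Tbx3, a T-box gene, was called lower in 6694c2 (−0.68 ± 0.14). It reached 1 TPM in 2 WT libraries of 6694c2 and 3 KOB libraries of 6419c5 and in no other. Tbx3 was therefore tested only through lines where it is high, and its calls are description. Gata2 reached 1 TPM in the 3 WT libraries of 6419c5 and in no other. It was therefore tested only through the line where it is high, and its lower call is description. Each of these 3 was below 5 TPM on average in the WT lines, and each differed between clones at the threshold (adjusted p = 0.0256 for Dlx3, 2.83e-04 for Gata2 and 0.00413 for Tbx3). These differences between clones, and that of Bmp8a, were not recomputed under the alternative settings given below.

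The E proteins that ID proteins bind were expressed in all lines. Tcf3 measured 120 ± 4.72 TPM in 6694c2 WT (SD, n = 4) and 97.6 ± 4.54 in 6419c5 WT (SD, n = 3), with KO effects of 0.31 ± 0.08 and 0.23 ± 0.09 (log2, SE). The second of them, at an adjusted p of 0.0431, was lost in 11 of 21 fits that left out 1 library and with size factors (0.14, adjusted p = 0.145). Tcf12 had −0.25 ± 0.11, not called but passing with size factors (−0.33, adjusted p = 0.00468), in a fit of that clone alone (adjusted p = 0.0481) and without library 1 or 3 of 6419c5 WT, and −0.45 ± 0.13, called and lost without library 3 of 6419c5 WT (−0.25, adjusted p = 0.117). Tcf4 had −0.16 ± 0.12 and −0.28 ± 0.13 and was not called in either clone, though in 6419c5 it passed with size factors (−0.37, adjusted p = 0.0144) and without library 1 of 6694c2 KOA (adjusted p = 0.0483).

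As a description over the 21 libraries, which share lines and clones, Grem1 went with Bmp2 (Pearson's r = 0.73) and Id3 (r = 0.68) and against Smad6 (r = −0.84) on the log2(TPM + 1) scale. Id1 had an r of −0.40 with Grem1. The genes most like Grem1 by Pearson's r were Dpy19l1 (r = 0.98), Itgb1 (r = 0.98) and Dynap (r = 0.96). Their rank correlations (Spearman's rho) with Grem1 were 0.84, 0.87 and 0.95, so the order depended on the measure. Itgb1 encodes integrin beta 1 and measured 372 TPM on average in 6694c2 WT, 195 in KOB and 500.06 in 6419c5 WT. Dynap averaged 40.9, 11.4 and 0.851 TPM for 6694c2 WT, KOA and KOB and 67.7, 16.01 and 14.4 TPM for the same lines of 6419c5. Likeness to Id1 was lower, with r = 0.77 for Chchd10 and 0.73 for Wdr83, which were among the genes most like it.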

How the data were processed

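RNA of sorted tumour cells was sequenced on an Illumina instrument, per the labels. The deposited TPM per gene were made by the authors with Salmon against mm10, per the submitters' processing notes, while the version, annotation and step from transcripts to genes are not given in the sources used here. TPM were used as deposited. TPM hide read number, so precision rests on the spread between libraries (SD for TPM, SE for differences). The tested genes reached 1 TPM or more in 3 or more libraries. Their log2(TPM + 1) values (pseudocount 1) were fitted by limma 3.58.1 under R 4.3.3 (lmFit, contrasts, eBayes with trend), with a mean for each of the 6 lines and 15 residual degrees of freedom. Tests were two-sided, adjusted by Benjamini-Hochberg over 14337 genes and called at an adjusted p under 0.05. The random line effect used statmod 1.5.0. Python 3.11.15 made the tables and figures (pandas 2.3.3, numpy 2.4.6, matplotlib 3.10.9). The script was tested on simulated data.

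The members and lists were chosen with earlier results of these data known. All 10 members were named, with up to 3 tested genes per pathway list of smallest p in the KO effect of either clone, the 3 genes of highest Pearson's r with Grem1 and with Id1 among those with a highest line mean of at least 5 TPM, and Epha2. A gene that this rule names for Id1 is not reported here. Alternatives were a pseudocount of 0.1, no filter on low values, median-of-ratios size factors, rescaling without Mir6236, leaving out its 2 highest libraries, each clone fitted alone, the line as a random effect and each library left out. Positions and promoter windows came from RefSeq tables on GRCm38.p6, which held windows for 6 of the 10 members (Grem1, Bmp4, Id2, Id3, Id4, Smad6).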

Additional observations from a re-analysis of the deposited data

Results flagged for a closer look

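In 6694c2, the lines with 4 libraries, 30 sets of values (10 members in 3 lines) were examined for a library far from the other libraries of its line, and chance alone would pick out about 1 in 20. Library 4 of WT had 0.452 TPM of Bmp7, above the other WT libraries. Library 3 of KOB had 0.436 TPM of Bmp7, below the other KOB libraries. Library 2 of KOA had 14.4 TPM of Smad6, above the other KOA libraries.

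The KO effect in 6694c2 less that in 6419c5 passed limma's test of the difference for Bmp4 (−1.32), Bmp7 (1.06), Id2 (−0.47) and Id4 (−0.995). Bmp7 and Id4 were tested only through libraries where they are high.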

How the results depend on the processing

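Of 3433 values of named genes recomputed, 3259 kept their direction and side of the threshold, 114 lost their call, 30 gained one, and 30 changed sign, 0 of them called at first. With the line as a random effect (estimated correlation 0.546), the members called were 0 (6694c2), 1 (6419c5) and 0 (difference between clones), and those of the other pathway genes 0 and 1. Without the libraries of high Mir6236, 3 members were called in 6419c5 and 2 in KOA less WT of 6419c5. Fitted alone, 6419c5 had 1 member called in KOB less KOA. Leaving out 1 library at a time gave 3 to 7 members called in 6419c5, 2 to 4 in KOA less WT of 6694c2 (2 without library 4 of WT) and 3 to 5 in KOA less WT of 6419c5 (3 without library 3 of WT or library 1 of KOA).

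Sign changes concerned uncalled values. With size factors these were Id1 in 6419c5 (−0.044), Gdf7 (−0.0080) and Gata2 (−0.0016) in 6694c2 and Chrdl2 in 6419c5 (−0.0066). With a pseudocount of 0.1 they were Gata2 (−0.055) and Dlx3 (−0.16) in 6694c2 and Chrdl2 in 6419c5 (−0.23), and rescaled without Mir6236, Chrdl2 (−0.0023). Without the libraries of high Mir6236 they were Id1 in 6419c5 (−0.20), in the difference between clones (0.17) and between WT lines (−0.040), and Epha2 in 6419c5 (0.023). The cause was not tested. With 1 library left out, the range was −0.20 to 0.17 for Id1 and −0.086 to 0.023 for Epha2 in 6419c5, −0.020 to 0.10 for Gata2 in 6694c2, −0.093 to 0.053 for Chrdl2 in 6419c5, −0.23 to 0.14 for the Id1 difference, and −0.040 to 0.33 for Id1 between WT lines. For KOA less WT it was −0.11 to 0.0015 for Id2 and −0.082 to 0.54 for Id3 in 6694c2, and −0.13 to 0.071 for Id2 and −0.093 to 0.061 for Id4 in 6419c5. For Bmp2 in KOB less KOA of 6694c2 it was −0.026 to 0.58.

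Size factors moved the median of all genes by 0.109 in KOB less WT of 6419c5, the one shift above 0.1. No paired analysis was possible because the table's columns number the libraries and carry none of the letters of the labels. Read depth is unknown, so members near 1 TPM (Bmp7, Id4) have an unknown counting error.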
